A study of Mus musculus with 3 samples.

Results

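Interleukins, colony-stimulating factors and their receptors were read in the 3 stromal cell populations of the mouse mesenteric lymph node. The set held the genes whose name in the array files began with Il and a digit, with Csf1, Csf2 or Csf3 or with a cytokine receptor-like (Crlf) symbol, or was Lif, Lifr, Osm, Osmr, Ctf1, Clcf1 or Flt3, and 5 cytokine genes (Il7, Il15, Il33, Csf1 and Csf3) were left out of it by name. This gave 95 of the 28084 gene names on the arrays, with 145 probes, and each gene was read through the probe whose mean signal was highest. By role, 43 were ligands, secreted antagonists or ligand-linked genes, 51 were receptors and 1, Il16, belonged to neither. The measured RNA came from lymphatic endothelial cells (LEC, sorted as CD31+ gp38+), blood endothelial cells (BEC, CD31+ gp38-) and fibroblastic reticular cells (FRC, CD31- gp38+), all taken as CD45-negative, CD24-negative cells from wild-type C57BL/6NCrl mice after collagenase digestion. The labels give no treatment, age or number of mice, and state a mean sort purity of 88% ± 1.5 over the subsets. Each population had 1 single-colour array, so the differences are without replicates and no p-value was computed.

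Interleukins and colony-stimulating factors are secreted proteins through which immune and stromal cells instruct each other. Most of their receptors are built from a ligand-specific chain and a chain shared by a whole family: the common gamma chain Il2rg, gp130 (Il6st), the common beta chain Csf2rb, or the accessory chain Il1rap. A cell usually needs every chain of a receptor to answer its cytokine, and decoy receptors and binding proteins (Il1r2, Il13ra2, Il18bp, Il22ra2) take up ligand without passing a signal. In lymph nodes, fibroblastic reticular cells and lymphatic endothelium are known for the cytokines that keep lymphocytes alive, and endothelium answers IL-1, IL-4, IL-6 and related cytokines by changing how it admits leukocytes.

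Values are log2 of the processed signal after division by the 75th percentile of its array, so 0 is the signal below which 75% of the probes lie on that array. A gene was compared between 2 arrays where its probe was well above background on at least 1 of them, and was called higher where it was so on the brighter array and differed by 4-fold (2 on the log2 scale). Where the dimmer array was not well above background, the fold is a lower bound, written as at least, against the probe's own value there or the lowest value well above background on that array, whichever is higher (-4.20 in LEC, -4.38 in BEC and -4.34 in FRC). No difference between the signals of different genes is read as one between their RNA levels.

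The probes of 5 members with large differences between populations are shown next, 4 receptors and the ligand Il17d. They are not a complete ranking, since Il12a and Il1r2, for example, also differed widely. Each line gives the first 30 of the 60 bases of the probe as the array files list them, and the positions are mouse build mm9, per the file headers. The Il2rg probe lay at chrX:98461022-98461535 on the minus strand, an interval longer than the probe itself. The Il13ra2 probe lay at chrX:143818033-143818092 on the minus strand, and the Il1rapl2 probe at chrX:135381146-135381205, the Il17d probe at chr14:58161919-58161978 and the Il1rl2 probes at chr1:40424245-40424304 and chr1:40402652-40402711, all on the plus strand. No annotation of exons on that build was used here.
Il2rg: agtcatactgtagaggagaatccttccttg
Il13ra2: tacatcttcttgaaaatcagtgtttgtcct
Il1rapl2: accagtgatatttggtagcggaaaacaaaa
Il17d: gctaggaaccaagcgcccctttgttcttta
Il1rl2, brighter probe: aactgaattcacttttttggccagaaagct
Il1rl2, dimmer probe: ggaagttgagtatggaagaaggatccctaa

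A total of 54 members (56.8%) were well above background on all 3 arrays and 29 (30.5%) on none, close to the shares among all gene names, 55.5% and 31.9%. On single arrays 60 members were well above background in LEC, 60 in BEC and 59 in FRC. Of 51 receptors 41, and of 43 ligands and antagonists 24, were well above background on at least 1 array. The ligands not well above background on any array included Il1a, Il2, Il3, Il4, Il5, Il9, Il12b, Il17a, Il21, Il22, Il25 and Il31, which are best known as products of lymphocytes, myeloid cells or epithelium. The others were Il1rn, Il1f6, Il1f9, Il1f10, Il17b, Il19 and Il20. Of the receptors, Il2ra, Il5ra, Il9r, Il17rb, Il18rap, Il20ra, Il22ra2, Il23r, Il1rapl1 and Csf3r were not well above background anywhere.

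In all, 23 members were at least 4-fold apart in some comparison, and 43 were compared and stayed under 4-fold. Against FRC, 5 of 63 compared members were called higher in LEC (7.94%, where 4.88% of all genes compared were) and 7 higher in FRC (11.1%, against 5.92% of all genes). For BEC against FRC the counts were 9 of 64 higher in BEC (14.1%, against 6.59%) and 9 higher in FRC (14.1%, against 7.58%). Between the endothelia, 2 of 64 were called higher in LEC (3.13%, against 3.39%) and 4 higher in BEC (6.25%, against 3.37%). Both comparisons with FRC use the same FRC array, so their values are given side by side and not counted as separate evidence. With another background correction (normexp), the calls that dropped below 4-fold were those of Il18, Il20rb and Il21r between LEC and FRC, of Csf2ra, Il13ra2, Il16, Il17re, Il1f5, Il27ra, Il2rb and Il7r between BEC and FRC, and of Il12a, Il1f5 and Il7r between LEC and BEC, all with the direction kept. Il21r also lost its call under other scalings, and Il4i1 when signals were divided by the spike-in slope. The median difference of the members from FRC was 0.14 in LEC and 0.25 in BEC, where over all genes compared it was 0.02 and 0.10. For LEC minus BEC the medians were -0.02 over the members and -0.07 over all genes.

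**Figure D1:**
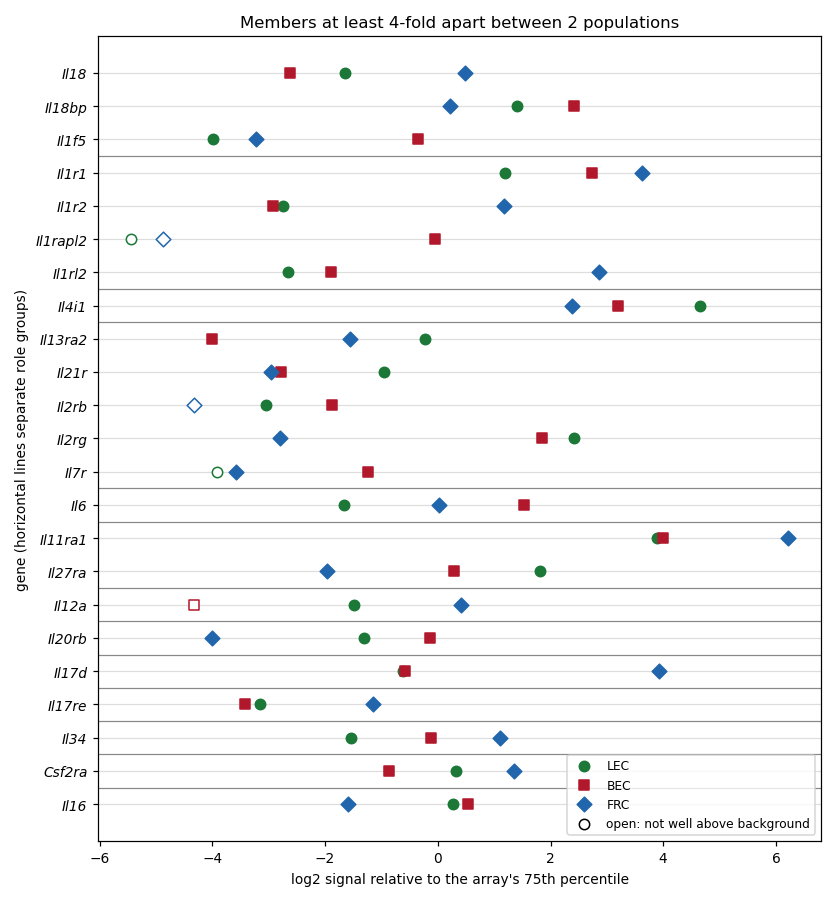
Log2 signal relative to the array's 75th percentile (horizontal axis) of the 23 members at least 4-fold apart between 2 populations, with 1 point per array for LEC (circles), BEC (squares) and FRC (diamonds); open points were not well above background. Il2rg, Il27ra and Il20rb have their FRC point at the left of both endothelial points, and Il1rl2, Il1r2, Il17d and Il11ra1 have it at the right.

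**Figure D2:**
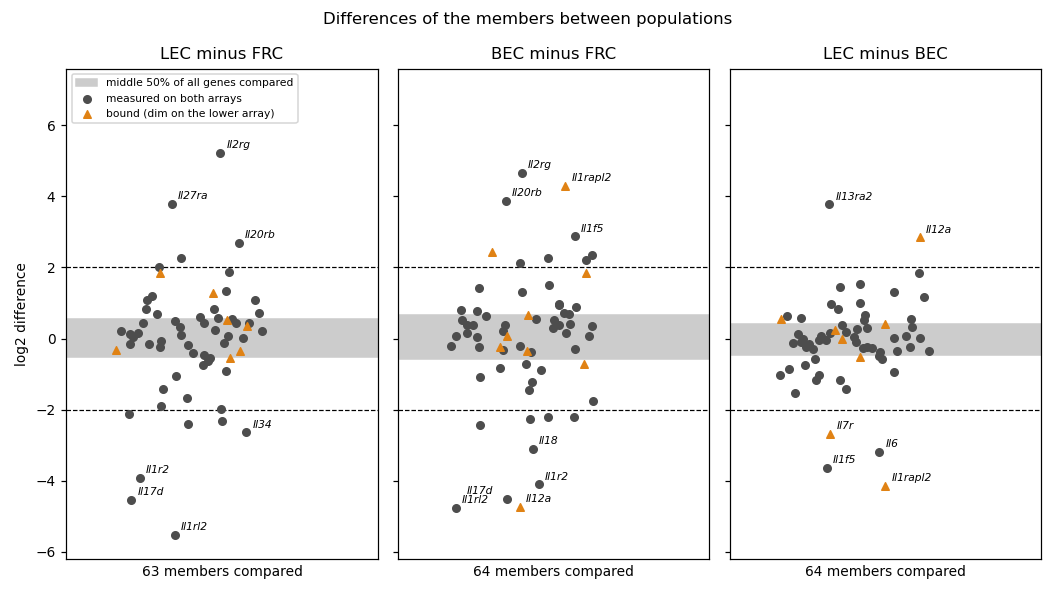
Log2 differences (vertical axis) of the members compared, in 3 panels (LEC minus FRC, 63 members; BEC minus FRC, 64 members; LEC minus BEC, 64 members), with 1 point per gene, triangles for bounds, a grey band over the middle 50% of all genes compared and dashed lines at 4-fold. Il2rg is the highest point of both comparisons with FRC, at 5.23 and 4.66, and Il1rl2 the lowest in each, at -5.52 and -4.77.

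Of the IL-1 family receptors, 3 of 6 compared with LEC and 2 of 7 compared with BEC were called higher in FRC. In the latter comparison 1 of 7, Il1rapl2, was called higher in BEC. Over all genes, 5.92% were called higher in FRC against LEC, 7.58% higher in FRC against BEC and 6.59% higher in BEC. Il1rl2, the receptor for the IL-36 cytokines, was at -2.65 in LEC and -1.90 in BEC, against 2.87 in FRC, so it was 45.9-fold lower in LEC and 27.2-fold lower in BEC than in FRC. Its other probe was also brightest in FRC, at -3.02, and was not well above background in LEC or BEC. Il1r2, the decoy that binds IL-1 without signalling, was at -2.75 in LEC and -2.93 in BEC, against 1.17 in FRC, which made it 15.2-fold lower in LEC and 17.2-fold lower in BEC. A second Il1r2 probe was not well above background on any array. Il1r1, the signalling IL-1 receptor, was at 1.20 in LEC and 2.73 in BEC, against 3.62 in FRC. It was 5.35-fold lower in LEC, while BEC and FRC differed by 1.85-fold, under the threshold. The shared accessory chain Il1rap was at -1.84 in LEC, -2.69 in BEC and -0.94 in FRC and stayed under 4-fold in all 3 comparisons.

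These receptor genes are neighbours. On chromosome 1 the probes of Il1r2, Il1r1, Il1rl2, Il1rl1, Il18r1 and Il18rap lay within 402.77 kb (mm9 40180014 to 40582789). The 3 genes at one end, Il1r2, Il1r1 and Il1rl2, were those called higher in FRC against LEC. Il1rl1, the IL-33 receptor, was at -3.96 in LEC, -3.85 in BEC and -4.0 in FRC, and Il18r1, the ligand-binding IL-18 chain, at -3.78, -3.54 and -3.89 in the same order, all near the lowest signal counted as well above background. Il18rap, the second IL-18 chain, was not well above background on any array. Across the whole set, 48 of the 95 members lay in 18 such groups of neighbours, with at most 500 kb between adjacent probes.

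**Figure D3:**
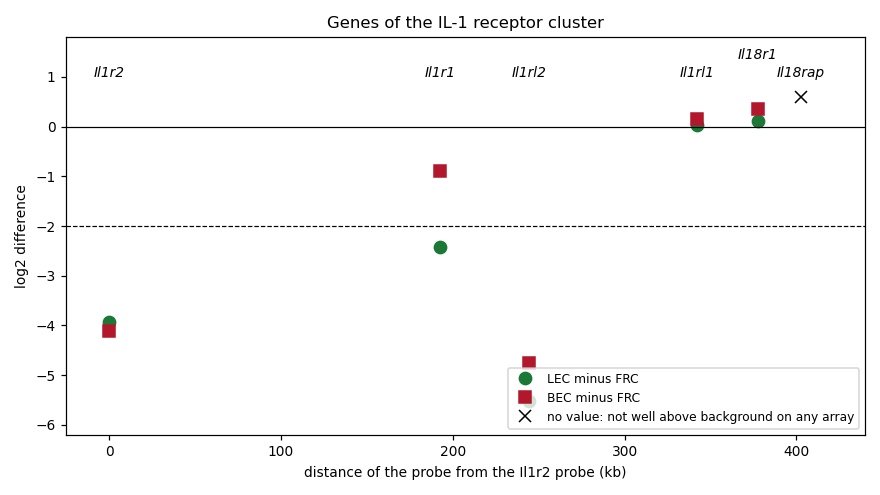
Log2 difference (vertical axis) of the genes of the IL-1 receptor cluster against the distance of each probe from the Il1r2 probe in kb, as circles for LEC minus FRC and squares for BEC minus FRC; the dashed line marks 4-fold, and the cross, at an arbitrary height, marks Il18rap, which has no value. Il1r2 and Il1rl2 lie below -3.9 in both comparisons, and Il1rl1 and Il18r1 lie within 0.35 of 0.

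Il1rapl2, an IL-1 receptor-like protein known from neurons, stood apart in BEC. It was at -0.04 there and not well above background in LEC (-5.45) or FRC (-4.87), so BEC was at least 19.6-fold higher than FRC and LEC at least 17.8-fold lower than BEC. The gene has a single probe on the array, as have other called members such as Il2rg, Il17d, Il27ra and Il13ra2. Among the 12 calls between LEC and FRC, 3 had a further probe well above background on either array, with the direction kept. So did 4 of 18 calls between BEC and FRC, and none of 6 between LEC and BEC.

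The ligands and antagonists of the IL-1 family split between FRC and BEC. Il18, a cytokine released after inflammasome cleavage, was spotted 10 times. It was at -1.64 ± 0.13 in LEC and -2.61 ± 0.22 in BEC, against 0.49 ± 0.09 in FRC (SD between 10 spots of 1 array, which covers spot error alone), or 4.38-fold lower in LEC and 8.60-fold lower in BEC. Its soluble antagonist Il18bp ran the other way, at 1.40 in LEC, 2.42 in BEC and 0.22 in FRC, and was 4.62-fold higher in BEC than in FRC. A second Il18bp probe gave a BEC minus FRC difference of 2.19, against 2.21 for the first. Il1f5, the IL-36 receptor antagonist, was at -3.98 in LEC, -0.35 in BEC and -3.23 in FRC. BEC exceeded FRC by 7.36-fold and LEC was 12.4-fold lower than BEC, but its second probe was not well above background on any array. Il1b, the inflammatory IL-1 ligand, was at -3.15 in LEC, -3.81 in BEC and -3.59 in FRC, and Il1f8, an IL-36 agonist, at -0.18, 0.07 and -0.32, and neither passed 4-fold.

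Of 18 listed genes that relay or dampen IL-1 and IL-17 receptor signals, 2 passed 4-fold in favour of LEC (4.88% of all genes did) and 1 in favour of FRC between those populations, and 3 in favour of BEC over FRC (6.59% of all genes did). Between the endothelia, 1 passed, Zc3h12a, an RNase that degrades cytokine transcripts, which was 4.03-fold lower in LEC than in BEC. Sigirr, which dampens IL-1 family receptors, was at 1.35 in LEC and 2.77 in BEC, against -2.77 in FRC, so LEC exceeded FRC by 17.3-fold and BEC by 46.6-fold. Irak2, a kinase of the same pathway, exceeded its FRC signal by 4.05-fold in LEC and by 5.33-fold in BEC. Traf3ip2, the adaptor of IL-17 receptors, was 5.59-fold lower in LEC than in FRC.

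Of the common gamma chain receptors, the chain itself separated endothelium from FRC. Il2rg was at 2.42 in LEC and 1.85 in BEC, against -2.81 in FRC, so LEC exceeded FRC by 37.5-fold and BEC by 25.3-fold. Jak3, the kinase that binds this chain, was at 3.19 in LEC and 3.01 in BEC, against -1.71 in FRC, or 29.9-fold higher in LEC and 26.3-fold in BEC. Il21r, the IL-21 chain, was at -0.95 in LEC, -2.79 in BEC and -2.95 in FRC, a 4.01-fold excess in LEC over FRC that lies just inside the threshold. Il2rb, shared by the IL-2 and IL-15 receptors, was at -3.04 in LEC and -1.88 in BEC and not well above background in FRC, so BEC was at least 5.42-fold higher. Il7r, the IL-7 chain, was at -1.24 in BEC and -3.59 in FRC and not well above background in LEC, with BEC 5.10-fold above FRC and LEC at least 6.38-fold below BEC. The other Il7r probes were not well above background on any array. Il4ra, the IL-4 chain, was at 3.20 in LEC, 3.13 in BEC and 3.42 in FRC and did not differ by 4-fold, nor did Il15ra, which presents IL-15, at -0.49, -0.34 and -1.22.

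Il13ra2, the decoy for IL-13, gave the furthest measured gap between the endothelia. It was at -0.23 in LEC, -4.01 in BEC and -1.56 in FRC, with LEC 13.7-fold higher than BEC and BEC 5.45-fold lower than FRC. The BEC signal lay near the floor of -4.38. Under other processing, LEC minus BEC fell as low as 2.06 on the log2 scale, and BEC minus FRC shrank to as little as -0.98. Il13ra1, the signalling counterpart of Il13ra2, was at 0.20 in LEC, 0.71 in BEC and 0.67 in FRC. Among the ligand-linked genes, Il4i1, a secreted amino acid oxidase named for its induction by IL-4, was at 4.66 in LEC, 3.20 in BEC and 2.39 in FRC and LEC exceeded FRC by 4.84-fold. Il13 was near -2.67, -2.59 and -2.25 on the 3 arrays in the same order, and Il2, Il4, Il9 and Il21 were not well above background on any of them.

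Several of these genes are known from lymphocytes, whose markers also had higher summed signals on the endothelial arrays. Of 12 T cell markers, 11 were well above background in LEC, 11 in BEC and 9 in FRC, and their summed signal was 9.87 in LEC and 9.83 in BEC, against 2.54 in FRC, in units of the array's 75th percentile. In LEC 3 of 11 compared and in BEC 4 of 11 passed 4-fold over FRC, and the median difference over those compared was 0.12 in LEC and 1.78 in BEC. Cd5, Cd247 and Lck were 19.0-fold, 9.90-fold and 8.41-fold higher in LEC than in FRC. In BEC, Cd247, Lck, Cd3d and Cd5 were 10.9-fold, 6.58-fold, 4.92-fold and 4.35-fold higher than in FRC. No T cell marker passed 4-fold in favour of FRC. Cd3e was at -0.73 in LEC, -1.12 in BEC and -0.55 in FRC, and Trat1 was not well above background on any array. The 13 pan-leukocyte markers summed to 16.8 in LEC and 37.2 in BEC, against 11.9 in FRC, with Ptprc, which encodes CD45, at -1.57, 0.23 and -2.36. The list of 11 natural killer and innate lymphoid markers includes Il2rb itself. Its members Ncr1, Klrb1c and Eomes were not well above background anywhere, and the sums of the list were 1.42 in LEC, 2.45 in BEC and 0.67 in FRC. The part of these cells in the signals of Il2rg, Il2rb, Il7r, Il21r, Il27ra and Il16 was not tested, and in such bulk samples fewer cells of a type and less RNA per cell cannot be told apart.

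The gp130 family was detected most completely. All 8 genes grouped as its receptors and 7 of 8 ligands were well above background on every array. The 8 include Crlf3, a cytokine receptor-like gene placed in this group here. Il11ra1, the IL-11 chain, was at 3.89 in LEC and 4.0 in BEC, against 6.22 in FRC, and was 5.02-fold lower in LEC and 4.66-fold lower in BEC. Its second probe gave log2 differences of -2.38 (LEC minus FRC) and -2.32 (BEC minus FRC), against -2.33 and -2.22 for the first. Mice carry a near-identical copy, Il11ra2, whose RNA these probes may also bind. Il27ra, the IL-27 chain, ran the opposite way, at 1.82 in LEC and 0.28 in BEC, against -1.97 in FRC, with LEC 13.8-fold and BEC 4.78-fold above FRC. The shared chain Il6st was at 6.10 in LEC, 5.79 in BEC and 5.02 in FRC, Osmr, the oncostatin M chain, at 4.25, 5.19 and 4.80, and Lifr, the LIF chain, at 2.98, 3.21 and 1.89, and none of these 3 passed 4-fold. Cntfr, the receptor chain for ciliary neurotrophic factor outside the set, was 12.5-fold lower in LEC and 19.7-fold lower in BEC than in FRC.

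Il6 was the gp130 ligand that separated the endothelia. Over its 10 spots it was at -1.66 ± 0.07 in LEC, 1.53 ± 0.10 in BEC and 0.02 ± 0.07 in FRC (SD between spots). LEC was 9.14-fold lower than BEC, with FRC between them and within 4-fold of each. Il27, a subunit of IL-27, was at 0.84 in LEC, 0.46 in BEC and 0.39 in FRC, and Il11, Osm, Ctf1 and Clcf1 also stayed under 4-fold in every comparison. Of these, Ctf1, which encodes cardiotrophin 1, was 2.69-fold lower in LEC and 2.74-fold lower in BEC than in FRC.

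JAK kinases and STAT factors carry many of these signals, and Socs and Pias proteins brake them. Of 11 JAK and STAT genes, 2 passed 4-fold in favour of LEC and none in favour of FRC in that comparison, and 2 in favour of BEC and none in favour of FRC in the other, where 4.88% of all genes were called higher in LEC and 6.59% in BEC. Besides Jak3, Stat4, the STAT of IL-12, was at -1.55 in LEC and -2.13 in BEC and not well above background in FRC, a bound of at least 6.91-fold for LEC and 4.60-fold for BEC. No gene of the 17 on the list of inhibitors, which holds the Socs and Pias families, passed 4-fold in any comparison. Among 18 genes known to follow IL-6 or IL-1, 2 passed 4-fold in favour of LEC and 3 of FRC when these were compared. Over all genes 4.88% and 5.92% did. For BEC against FRC, 2 favoured BEC and 6 FRC, where 6.59% and 7.58% of all genes did. Between the endothelia, 3 of 17 compared favoured LEC and none BEC (3.39% and 3.37% of all genes). Ccl20 was not well above background in FRC, and LEC was at least 283-fold higher. It was 64.8-fold higher in LEC than in BEC. Saa3 was at least 44.5-fold lower in LEC and 29.2-fold lower in BEC than in FRC. Hp, the haptoglobin gene, was at -1.51 in LEC and -0.99 in BEC, against 3.19 in FRC, whereas Lcn2, lipocalin 2, was at 0.33 in LEC and 0.34 in BEC, against -2.82 in FRC.

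Of the IL-12 and IL-23 genes, Il12a, the p35 subunit shared by IL-12 and IL-35, was at -1.48 in LEC and 0.41 in FRC and not well above background in BEC. BEC was at least 26.7-fold lower than FRC, and LEC at least 7.19-fold higher than BEC. Il12b, the subunit it needs to form IL-12, was not well above background on any array, and Ebi3, which with p35 forms IL-35, was at -2.22 in LEC, -2.25 in BEC and -3.59 in FRC. Il23a was well above background in BEC alone, at -3.69, near the floor. Of the receptors, Il12rb2 was at -2.81 in LEC, -1.96 in BEC and -2.68 in FRC, Il12rb1 was well above background in LEC alone, at -3.82, and Il23r nowhere.

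Il17d, a less studied member of the IL-17 family, was at -0.62 in LEC and -0.59 in BEC, against 3.93 in FRC, or 23.4-fold lower in LEC and 22.9-fold lower in BEC, and LEC and BEC differed by 1.02-fold. Il17re, the IL-17C receptor chain, was at -3.15 in LEC and -3.41 in BEC, against -1.16 in FRC. It was 4.77-fold lower in BEC, and its 3.97-fold gap in LEC lies just outside the threshold. Its second probe was not well above background anywhere. Il17rc, which pairs with Il17ra for IL-17A, was at 2.96 in LEC, 2.92 in BEC and 3.14 in FRC, Il17ra at -1.05, -2.36 and -1.54, and Il17rd at 1.41, 1.78 and 1.26, all under 4-fold. Il17a, Il17b and Il25 were not well above background on any array, and Il17c and Il17f were near the floor where they were detected.

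In the IL-10 and interferon lambda families, Il20rb, a chain of the IL-20 receptors, was at -1.31 in LEC and -0.13 in BEC, against -4.0 in FRC. LEC exceeded FRC by 6.49-fold and BEC by 14.7-fold, but a second probe, also well above background on all arrays, gave log2 differences from FRC of 0.69 in LEC and 0.98 in BEC in place of 2.70 and 3.87. Il10rb, a chain shared by the receptors for IL-10, IL-22 and interferon lambda, was at 4.41 in LEC, 4.79 in BEC and 3.83 in FRC. Il24 was at -2.74 in LEC, -2.81 in BEC and -2.59 in FRC. Il10 was well above background in BEC alone, at -4.26, near the floor. Its LEC signal, not well above background, was higher at -3.95, and its FRC signal was -4.86. Il28ra and Il28b, the interferon lambda receptor chain and ligand now named Ifnlr1 and Ifnl3, were well above background in FRC alone, at -3.65 and -3.84, near the floor. The bounds for FRC over LEC and BEC were small, at least 1.46-fold and 1.65-fold for Il28ra and 1.28-fold and 1.26-fold for Il28b.

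Among the colony-stimulating factors and their receptors, Il34, a second ligand of the CSF-1 receptor, was at -1.54 in LEC, -0.13 in BEC and 1.10 in FRC and was 6.22-fold lower in LEC than in FRC. Csf1, its sister ligand outside the set, was at 6.07 in LEC, 2.55 in BEC and 4.14 in FRC, and their receptor Csf1r at -0.14, -0.67 and -0.75. Csf2, which encodes GM-CSF, was at -2.49 ± 0.13 in LEC and -2.48 ± 0.14 in BEC (SD between 10 spots) and not well above background in FRC. Its bounds, at least 3.60-fold and 3.62-fold higher than FRC, fall short of 4-fold. Csf2ra, the GM-CSF chain, was at 0.32 in LEC, -0.86 in BEC and 1.36 in FRC, and was 4.67-fold lower in BEC than in FRC.

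The beta chains that complete the IL-3, IL-5 and GM-CSF receptors were detected in all populations. Csf2rb2, which in mice serves IL-3 alone, was at 5.97 in LEC, 5.82 in BEC and 5.13 in FRC, and Csf2rb, the common chain, at 4.12, 5.14 and 4.76. The 2 genes are close copies 68.04 kb apart on chromosome 15, and at the best ungapped alignment the brightest Csf2rb probe shared 31 of 42 overlapping bases with the Csf2rb2 probe. The other Csf2rb probes gave LEC minus FRC differences of 0.95 and -0.38, against -0.64 for the brightest. Crlf2, which pairs with Il7r to bind TSLP, was at 4.52 in LEC, 4.77 in BEC and 3.83 in FRC, Il3ra at 2.25, 2.82 and 2.18, and Flt3 at -3.13, -3.16 and -3.57, and none passed 4-fold. Il16, a secreted chemoattractant unrelated to the other families, was at 0.27 in LEC and 0.54 in BEC, against -1.60 in FRC, with LEC 3.67-fold and BEC 4.40-fold above FRC. A second Il16 probe was not well above background on any array.

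**Figure D4:**
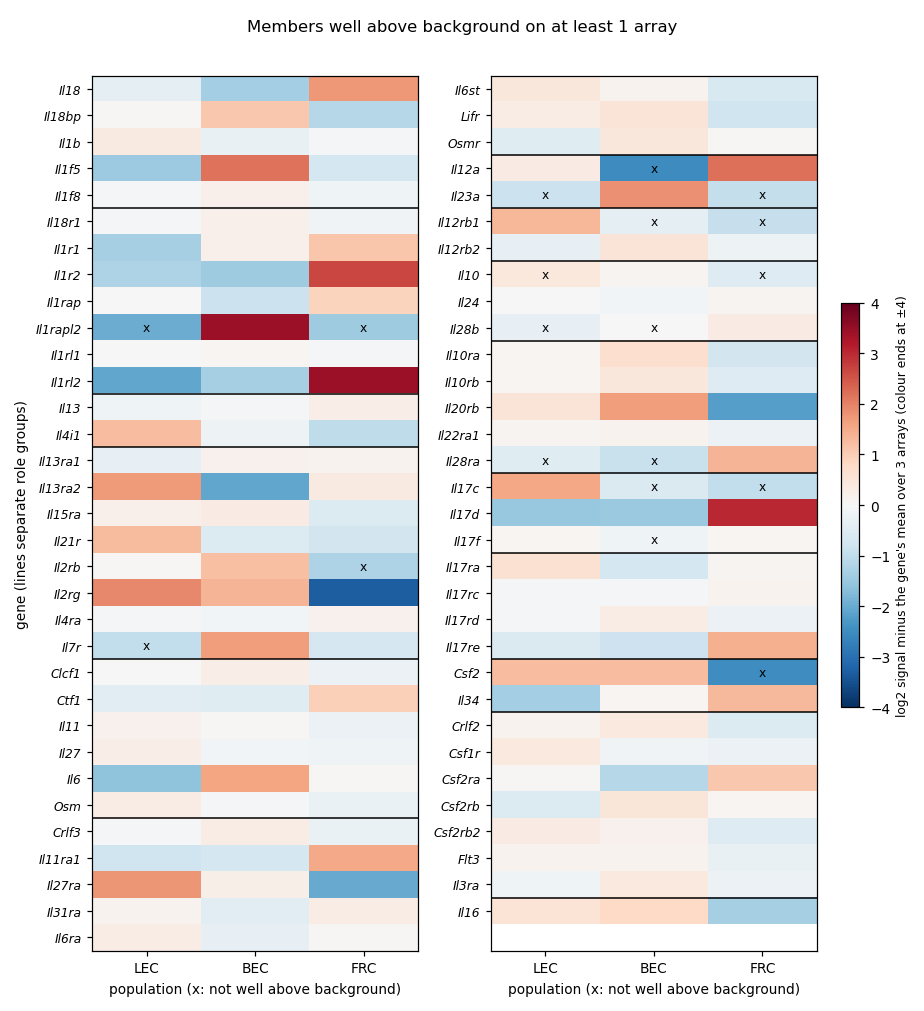
Log2 signal minus the gene's mean over the 3 arrays (colour, red above and blue below the mean) for 65 members well above background on at least 1 array, in the columns LEC, BEC and FRC, with lines between role groups and x where the probe was not well above background. Most rows are pale, and deep colours stand in few genes per group, such as Il1rl2 and Il17d in FRC, Il1rapl2 in BEC and Il13ra2 in LEC and BEC.

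Whether a population had RNA for all chains of a receptor was then read for 33 textbook receptor assemblies. All chains were well above background for 22 in LEC, 23 in BEC and 23 in FRC, and 20 of these were complete in all 3 populations. They included the receptors for IL-1, IL-4, IL-6, IL-10, IL-11, IL-27, GM-CSF and IL-17A. Some of the 20 rest on a probe near the floor. Examples are Il10ra of the IL-10 receptor in FRC, at -4.17, and Il20rb of the type II IL-20 receptor in FRC, at -4.0. Il1rl1 of the IL-33 receptor was near the floor on all 3 arrays. The IL-15 receptor was complete in LEC and BEC, with Il2rb not well above background in FRC, and the IL-7 and TSLP receptors were complete in BEC and FRC, with Il7r not well above background in LEC. Il7r was near the floor in both LEC (-3.91) and FRC (-3.59), 1.25-fold apart. The contrast between these 2 populations thus rests on the detection flag alone. LEC alone had both IL-12 receptor chains, and FRC alone both interferon lambda chains, each through a probe near the floor. The 8 assemblies complete in no population, among them the receptors for IL-2, IL-5, IL-9, IL-18 and G-CSF, each had at least 1 chain not well above background on every array.

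**Figure D5:**
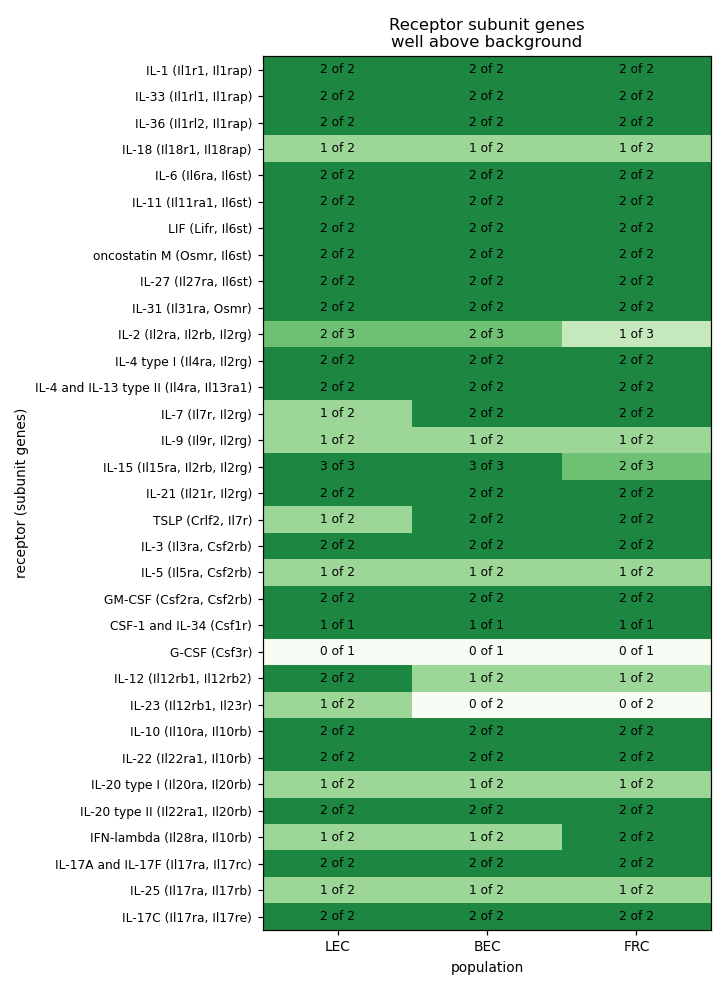
Number of subunit genes well above background out of the subunit genes of each of 33 receptors (rows) in LEC, BEC and FRC (columns), with darker green for a larger share. Of the 33, 20 are complete in all 3 columns, and the columns differ at Il2rb, Il7r, Il12rb1 and Il28ra.

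Other cell types were also read beside the calls. The 9 mesothelial and epithelial markers summed to 6.20 in LEC and 3.22 in BEC, against 13.7 in FRC, with 2 of 9 at least 4-fold lower in LEC than in FRC and 6 of 9 lower in BEC than in FRC, and their part in the signals of Il1rl2, Il18, Il17d and Il1r2 was not tested. Each array had the highest sum of the markers of its label. The 10 LEC markers summed to 432 in LEC, 58.2 in BEC and 9.02 in FRC, the 10 BEC markers to 385, 1815 and 193, and the 10 FRC markers to 183, 51.1 and 3210, in the same order. The 10 adipocyte markers summed to 308 in LEC and 856 in BEC, against 31.8 in FRC, and 4 of 9 compared passed 4-fold over FRC in LEC and 6 of 9 in BEC (1 of 9 favoured FRC in each). Among them Cfd, which encodes adipsin, exceeded FRC by 6.70-fold in LEC and by 32.1-fold in BEC, while Lep, which encodes leptin, was not well above background on any array. Their part in the members called higher in LEC or BEC was not tested. The 10 B cell and plasma cell markers summed to 8.23 in LEC and 11.4 in BEC, against 5.32 in FRC, and the 12 granulocyte and mast cell markers to 3.01 in LEC and 4.98 in BEC, against 1.58 in FRC. Of the 10 pericyte and smooth muscle markers, 2 passed 4-fold in favour of each endothelium and 2 in favour of FRC in each comparison with FRC. The 5 erythroid markers summed to 121 in LEC and 321 in BEC, against 23.5 in FRC. The 14 macrophage and dendritic cell markers, which include Csf1r and Flt3, summed to 21.4 in LEC, 11.2 in BEC and 14.7 in FRC.

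Promoters of the same 5 members are shown because these members stood on different sides of the comparisons. RefSeq promoters (build GRCm38.p6, 250 bases before to 50 after the start) were found for 75 of the 95 members. Capitals mark matches on either strand to TTCNNNGAA (STAT factors), TGANTCA (AP-1) or CGGAAG (ETS factors). A CGGAAG match stood in Il2rg, the gene furthest in favour of endothelium (chrX:101268206-101268505, minus strand), and in Il1rl2, the gene furthest in favour of FRC (chr1:40324339-40324638, plus strand). Il17d (chr14:57524579-57524878, plus strand) held a TTCNNNGAA match and Il13ra2 (chrX:147429143-147429442, minus strand) a TGANTCA match. Il1rapl2 (chrX:137570504-137570803, plus strand), called higher in BEC, held no match to these letters.
Il2rg promoter: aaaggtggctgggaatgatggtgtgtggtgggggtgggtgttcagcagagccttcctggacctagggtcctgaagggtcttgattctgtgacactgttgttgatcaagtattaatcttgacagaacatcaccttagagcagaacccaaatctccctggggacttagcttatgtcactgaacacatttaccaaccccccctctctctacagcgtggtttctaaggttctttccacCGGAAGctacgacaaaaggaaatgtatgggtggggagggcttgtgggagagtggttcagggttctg
Il1rl2 promoter: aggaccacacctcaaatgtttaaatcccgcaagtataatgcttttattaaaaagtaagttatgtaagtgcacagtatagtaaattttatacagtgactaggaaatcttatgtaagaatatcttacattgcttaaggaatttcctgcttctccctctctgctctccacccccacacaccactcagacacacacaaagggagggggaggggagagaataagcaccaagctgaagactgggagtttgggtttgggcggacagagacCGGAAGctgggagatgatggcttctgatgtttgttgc
Il17d promoter: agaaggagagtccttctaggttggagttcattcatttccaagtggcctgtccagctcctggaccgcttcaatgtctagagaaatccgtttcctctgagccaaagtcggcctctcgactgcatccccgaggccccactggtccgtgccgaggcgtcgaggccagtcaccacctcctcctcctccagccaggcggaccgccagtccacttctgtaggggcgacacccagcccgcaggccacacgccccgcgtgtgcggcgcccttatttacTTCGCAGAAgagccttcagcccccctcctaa
Il13ra2 promoter: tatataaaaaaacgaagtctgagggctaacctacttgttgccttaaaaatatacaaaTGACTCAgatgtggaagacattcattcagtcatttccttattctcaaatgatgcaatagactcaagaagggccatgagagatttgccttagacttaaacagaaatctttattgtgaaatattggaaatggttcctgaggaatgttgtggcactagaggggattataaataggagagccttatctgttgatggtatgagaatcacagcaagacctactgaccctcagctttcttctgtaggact
Il1rapl2 promoter: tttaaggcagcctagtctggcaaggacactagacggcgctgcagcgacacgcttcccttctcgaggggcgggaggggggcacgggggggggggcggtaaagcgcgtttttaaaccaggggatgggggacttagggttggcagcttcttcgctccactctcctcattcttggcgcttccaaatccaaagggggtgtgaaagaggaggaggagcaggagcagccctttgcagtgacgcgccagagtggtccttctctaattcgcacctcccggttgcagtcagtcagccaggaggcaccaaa

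Of 32851 mouse promoters of that length, 16.9% held CGGAAG, 8.30% TTCNNNGAA and 7.81% TGANTCA. Among the 90 promoters of the members the shares were 13.3%, 12.2% and 16.7%, in the same order. A match is a description of these letters and says nothing on whether a factor binds there.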

How the data were processed

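RNA of LEC, BEC and FRC was hybridised to 1 array each. Per the submitters' processing notes, the authors used Agilent Feature Extraction 10.7.3.1 for their scanner files. The intensity in the scanner files had its background subtracted and was not scaled between arrays, per the file headers, which also place all 3 arrays on 1 slide. The slope of signal on spike-in concentration, per the file headers, was 1.00 for LEC, 0.919 for BEC and 0.821 for FRC, which the header marks as out of range, so equal RNA differences need not give equal differences in signal. The authors' deposited matrix, also intensity, served as an alternative. It gave nearly the same calls over all genes as quantile normalization (907 and 1109 against 906 and 1110 for LEC minus FRC). These 2 alternatives are therefore not separate checks.

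Outlier spots were left out and spots of a probe averaged as log2 (Python 3.11.15, pandas 2.3.3), minus the log2 of the deposited array's 75th percentile of intensity (268 in LEC, 361 in BEC, 387 in FRC). Over probes spotted 10 times and well above background the median SD between spots was 0.05 to 0.06 (0.07 to 0.10 over all probes spotted 10 times), which covers spot error and not animals, sorts or amplification. The number of arrays limits the precision. limma 3.58.1 gave the normexp alternative. The comparison step was tested on simulated data with known folds and spot noise alone, which tests the code and not the calls. Named are members 4-fold apart, the member with the highest mean of each role group, and others as under 4-fold or not detected. Members and lists were chosen with earlier results of these data known. Symbols are those of the files. 1 member is counted but not reported here by name.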

Additional observations from a re-analysis of the deposited data

How the results depend on the processing

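No paired analysis was possible because each population had 1 array, and for the same reason no replicate could be left out. Under 11 alternatives at the 4-fold threshold, 8 of 12 calls between LEC and FRC, 8 of 18 between BEC and FRC and 2 of 6 between LEC and BEC were kept in all of them, and no called difference changed sign. Normexp background correction left 3 members higher in LEC than in FRC in place of 5, 4 higher in BEC than in FRC in place of 9, and 1 higher in LEC and 2 higher in BEC between the endothelia in place of 2 and 4. Requiring a probe well above background on both arrays, which removes every bound, left 1 and 2 between the endothelia, and 488 and 494 of all genes. Without the filter on dim probes, 8 members exceeded FRC in LEC and 4 exceeded BEC in LEC, and of all 28084 genes 1227 and 1019 did. For LEC against FRC, a 2-fold threshold gave 12 higher in LEC and 12 higher in FRC, and 2395 and 2454 of all 18418 genes compared. Between the endothelia it gave 8 higher in LEC and 10 higher in BEC, and 2005 and 1864 of all 18304. Over all genes, normexp left 550 higher in LEC than in FRC in place of 898. For BEC over FRC it left 739 in place of 1240. Between the endothelia it left 287 higher in LEC and 324 higher in BEC, in place of 620 and 617. Normexp was run with an offset of 50 added to each intensity, which narrows ratios between dim signals. The share of this offset in the drop was not tested. The other 60 recomputed counts of members stayed within 1.5 times. Updating gene names left 94 members.

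Il21r, at 4.01-fold, lost its call under 4 alternatives and ranged from 1.21 to 2.65 on the log2 scale for LEC minus FRC. Il4i1 fell to 1.74 when values were divided by the spike-in slope, and Il20rb to 1.70 with the mean of its probes and 1.35 under normexp. Without the filter, the median of all genes shifted by 0.17 for LEC minus BEC. Signals near the floor, such as those of Il18r1, Il1rl1, Il10 and Il12rb1, carry little information on order, and 1 array per population leaves the spread between mice and sorts unknown.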
